A study of Homo sapiens with 8 samples.

Results

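ZNF symbols name human zinc finger genes, most of which encode proteins with a row of C2H2 zinc fingers that read DNA. Of 425 genes with a symbol made of ZNF and digits and a probe set of their own, 152 were chosen by their mean intensity, which was at least 500 over all 8 arrays. The other 273 were dimmer and are set beside them only as a comparison. The values compare 4 samples of quiescent cells with 4 samples of cycling cells, both sorted from multicellular aggregates (MALC) of RL after 14 days of culture. RL is an established human B lymphoma line from ATCC that carries the t(14,18) translocation, and both groups share that genotype and the whole culture. Sorting was by pyronin Y, a dye that binds RNA: quiescent cells were pyronin Y dull and cycling cells pyronin Y bright. All samples thus come from 1 cell line. Whether a group's 4 samples are separate cultures is not in the labels, and every p-value measures only how these samples scatter, which may be technical scatter.

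C2H2 zinc finger proteins form the largest class of human transcription factors. Many carry a KRAB domain, which recruits TRIM28 (KAP1) and, through it, the histone methyltransferase SETDB1 and other silencing proteins, often at retrotransposons. Others have no KRAB domain and work as promoter factors, RNA-binding proteins or parts of the ribosome and spindle machinery. KRAB zinc finger genes lie in clusters of related copies, many of them on chromosome 19.

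The authors' scaling gave all arrays the same trimmed mean of 500.1, so an intensity is relative to the other transcripts on its array and is no amount per cell. The median probe set read 103 to 113 on quiescent arrays and 71.9 to 97.9 on cycling arrays. Differences are given as log2 quiescent minus cycling after centring each array on its median probe set. On the scale as deposited every such difference is higher by 0.41, and because this shift decides many directions the deposited and quantile-normalised results are given beside the centred ones. A gene was called where limma's p, adjusted by the Benjamini-Hochberg method over the 11678 genes tested, was under 0.05. A gene named as higher or lower in all 3 scalings was called that way on each. Whether the groups of a gene overlapped was judged on the deposited intensities, and centring can change it. The share of all genes without overlap was not counted, so a lack of overlap does not set a gene apart.

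The label of the fractions was checked on 3 genes outside the family. MKI67, a proliferation marker, read 362 ± 188 in quiescent cells and 1899 ± 388 in cycling cells (SD, n = 4 each). TOP2A, the topoisomerase of dividing cells, read 540 ± 262 in quiescent and 4783 ± 512 in cycling cells, and CDKN1B, the p27 inhibitor of cyclin-dependent kinases, 8673 ± 1716 in quiescent and 4102 ± 799 in cycling cells. The 6 measured B lineage genes were all bright in both groups, PAX5 the dimmest at 2137. All 6 T cell markers, 5 fibroblast markers and 5 epithelial markers stayed under a mean of 500. Of 4 measured monocyte and macrophage markers, LYZ was the dimmest and only MPEG1 was above 500, at 4011. Summed epithelial markers read 349 to 412 on quiescent and 166 to 347 on cycling arrays, and summed monocyte markers 4148 to 5664 and 2030 to 4265 on the same groups; their part in the results was not tested. The actin 3′ to 5′ log2 ratio, a sign of RNA integrity or of labelling, was 2.57 ± 0.18 in quiescent and 2.02 ± 0.20 in cycling arrays (SD, n = 4 each), and its part in the results was not tested either. Cycling sample 2 stood closest to the quiescent arrays, with a mean correlation of 0.945 over genes, against 0.913 to 0.932 for the other cycling samples.

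The 152 genes had mean intensities from 504 to 9450 with a median of 1051, and 34 averaged at least 2000. They lay on 20 chromosomes, 57 of them on chromosome 19, which holds 208 of all 425 ZNF genes. The 3 genes just outside the limit were ZNF576 at 495, ZNF136 at 497 and ZNF250 at 499, and the 3 just inside were ZNF436 at 504, ZNF8 at 507 and ZNF611 at 512. Both group means reached 500 in 135 genes. In 3 genes (ZNF598, ZNF600 and ZNF689) the quiescent mean was below 500, and in 14 the cycling mean was. These 17 genes met the limit through their brighter group, so a difference in them is partly a product of the choice.

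As a family the well-measured ZNF genes had a median difference above that of other bright genes with centred arrays and after quantile normalisation. The scaling as deposited only shifts whole arrays, so it leaves the gap between these medians unchanged by construction. With centred arrays 4 of the 152 were called higher and 28 lower in quiescent cells, 2.63% and 18.4%, while 2.80% of all genes tested were called higher and 32.5% lower. The share of higher calls was thus near the background. Of the 135 genes with both group means at 500 or more, 3 were called higher and 25 lower. Among 6723 other genes at 500 or more, 184 were higher and 3094, or 46.0%, lower. The median log2 difference was -0.19 for the family with centred arrays, but 0.22 as deposited and 0.21 after quantile normalisation, so its sign follows the scaling. For other genes at 500 or more the same medians were -0.46, -0.05 and -0.03. Set against the median of all genes tested, which was -0.33 with centred arrays, the family stood 0.14 higher and other genes at 500 or more stood at -0.13. In all, 103 of the 152 (67.8%) lay above the median of all genes.

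With the scaling as deposited the family split the other way. There 28 members were called higher and 8 lower (18.4% and 5.26%), against 12.3% higher and 15.4% lower among all genes. After quantile normalisation 24 were higher and 8 lower (15.8% and 5.26%), against 10.5% and 16.4% among all genes. No member was called in opposite directions by any of the 3 scalings, and 96 were called by none. With centred arrays 3 members were at least 2-fold lower and 0 at least 2-fold higher, 1.97% of the family, while 13.9% of all genes tested passed 2-fold. These 3 were ZNF689, ZNF600 and ZNF134. Of them ZNF689 and ZNF600 met the limit only through their cycling samples, so their falls are partly a product of the choice.

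**Figure D1:**
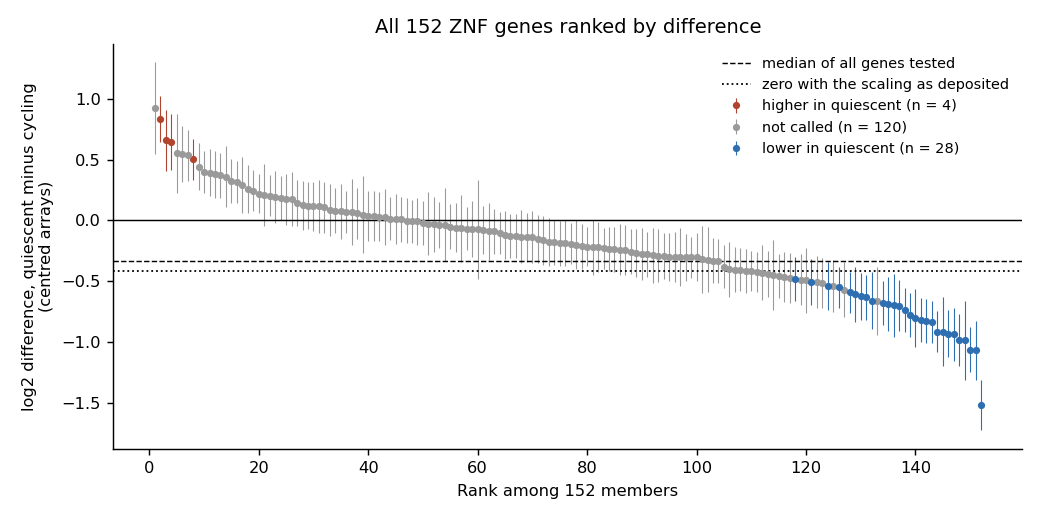
Log2 difference between quiescent and cycling samples (vertical axis, centred arrays, bars are standard errors) of each of the 152 ZNF genes, ranked along the horizontal axis. Points run from 0.92 at the left to -1.52 at the right, 4 called higher, 28 called lower, and most of the others lie above the dashed median of all genes tested (-0.33).

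**Figure D2:**
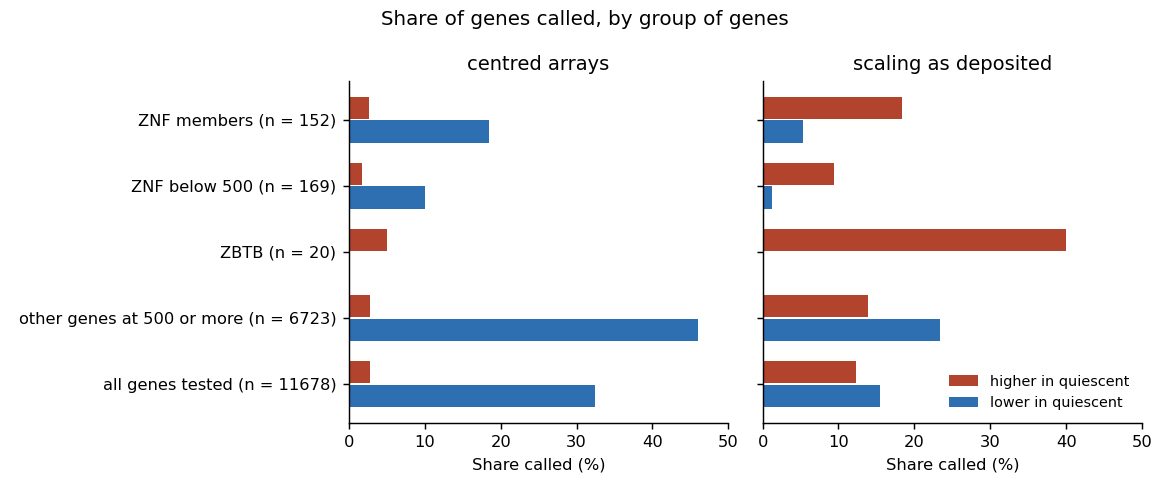
Percentage of genes called higher and lower in quiescent cells (horizontal axis) in the ZNF genes, in dimmer ZNF genes, in ZBTB genes, in other genes at 500 or more and in all genes tested, with centred arrays on the left and the deposited scaling on the right. The lower share of the ZNF genes is 18.4% with centred arrays and 5.26% as deposited, against 46.0% and 23.3% in other genes at 500 or more.

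In each of 3 bands of brightness, lower calls made up a smaller share of the family than of the other genes, a difference of shares that was not tested. Among genes from 500 up to 1000, 15 of 71 members (21.1%) were called lower with centred arrays, against 35.6% of 1856 other genes. From 1000 up to 2000 these were 7 of 47 members (14.9%) against 46.9% of 1855 other genes, and from 2000 on 6 of 34 members (17.6%) against 51.9% of 3012. The median difference of members was -0.19, -0.13 and -0.26 in these bands, against -0.38, -0.47 and -0.50 for the other genes. By kind of probe set, the 100 members measured by plain probe sets had 4 higher and 19 lower calls and a median of -0.19, the 23 measured by probe sets marked _x 0 higher, 3 lower and a median of -0.01, and the 26 measured by probe sets marked _s 0 higher, 5 lower and a median of -0.30. Both marks are given to probe sets that can match more than 1 transcript.

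On single arrays the level of the family was set against that of the other bright genes. The median log2 level of the 152 genes minus that of the 6723 other bright genes was -0.78, -0.27, -0.52 and -0.62 in quiescent samples 1 to 4, against -1.03, -0.71, -0.82 and -0.83 in cycling samples 1 to 4. Quiescent sample 1 lay below cycling sample 2, so the groups overlapped, and the other quiescent samples lay above all cycling ones. The samples ranked in the same order in both groups, and at every sample number the quiescent value lay above the cycling one. The labels do not say that equal numbers mark pairs. Summed intensities of the family made up 0.897%, 1.18%, 1.01% and 1.03% of the summed intensity of all genes in quiescent samples, against 0.749%, 0.995%, 0.850% and 0.865% in cycling samples, again with quiescent sample 1 below cycling sample 2. These arrays are averages over many cells, in which fewer cells with a transcript and less of it per cell cannot be told apart.

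**Figure D3:**
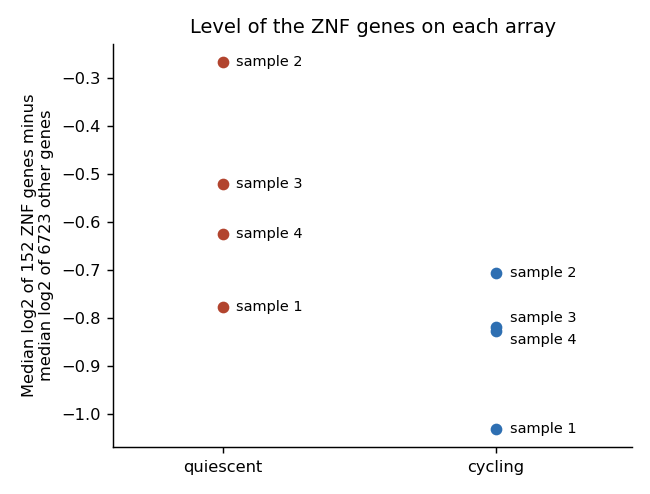
Median log2 intensity of the 152 ZNF genes minus the median of 6723 other genes at 500 or more (vertical axis, log2), 1 point per array, quiescent left of cycling. Quiescent points lie between -0.78 and -0.27, cycling points between -1.03 and -0.71, and only quiescent sample 1 reaches into the cycling range.

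Called in all 3 scalings were 4 genes that were higher and 5 that were lower in quiescent cells. The matching shares among all genes tested were not counted, so these counts are a description only. ZNF141 on chromosome 4 encodes a KRAB zinc finger protein. Its intensities were 3328, 5627, 4924 and 5126 in quiescent samples 1 to 4, against 1691, 2725, 1689 and 1923 in cycling samples 1 to 4. Every quiescent value lay above every cycling value, and the log2 difference was 0.83 (SE 0.19, limma adjusted p = 0.00218). A second probe set of ZNF141 was also called higher (0.68), and the call remained when any one array was left out, with differences of 0.74 to 0.99.

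ZNF91, a KRAB protein of primates known to silence SVA retrotransposons, read 4109, 4935, 5044 and 5289 in quiescent samples, against 2195, 3066, 2303 and 2773 in cycling samples. The groups did not overlap and the difference was 0.50 (SE 0.17, limma adjusted p = 0.0245). Its 3 dimmer probe sets were not called, and without quiescent sample 2, 3 or 4 or cycling sample 1 the adjusted p was 0.0535 to 0.0836.

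ZNF217, an oncogene of breast cancer whose protein works in corepressor complexes, read 1464, 2694, 2258 and 2429 in quiescent samples, against 846, 916, 1236 and 1212 in cycling samples. As deposited its lowest quiescent value was above its highest cycling value, but after centring quiescent sample 1 lay below cycling samples 3 and 4. The centred difference was 0.64 (SE 0.23, limma adjusted p = 0.0363). ZNF14, a KRAB gene of chromosome 19, read 650.4, 921, 587 and 965 in quiescent samples, against 294, 703, 343 and 245 in cycling samples. Cycling sample 2 lay within the quiescent range, the difference was 0.66 (SE 0.25, limma adjusted p = 0.0482), and the cycling mean of 396 was under the limit of the family. Both calls rest on few arrays: that of ZNF217 was lost without any one of quiescent samples 2, 3 and 4 and cycling samples 1 and 2 (limma adjusted p = 0.0864 to 0.106), and that of ZNF14 without any one of quiescent samples 2 and 4 and cycling samples 1, 3 and 4 (limma adjusted p = 0.0782 to 0.173).

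The promoters of ZNF141 and ZNF217 are shown as 2 of the genes that were higher under every scaling, and those of ZNF689 and ZNF326 as 2 that were lower. Each runs from 250 bases before to 50 after the start site listed first by RefSeq for GRCh38.p14, 5′ to 3′ on the strand of the gene. Capitals mark the letters of motifs that were searched on both strands: CCAAT (the NFY box), CCGGAAG (ETS factors), GGGCGG (SP factors), TTCCCGC (E2F) and TTTGAA (the CHR element of cell cycle genes). A match is a description of these letters only.
ZNF141, chr4:337564-337863, plus strand: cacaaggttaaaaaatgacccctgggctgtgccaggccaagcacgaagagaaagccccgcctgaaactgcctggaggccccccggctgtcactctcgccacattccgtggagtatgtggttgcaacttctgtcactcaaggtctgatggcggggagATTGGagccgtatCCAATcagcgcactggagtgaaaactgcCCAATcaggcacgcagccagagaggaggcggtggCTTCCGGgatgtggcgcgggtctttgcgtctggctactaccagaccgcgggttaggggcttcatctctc
ZNF217, chr20:53593790-53594089, minus strand: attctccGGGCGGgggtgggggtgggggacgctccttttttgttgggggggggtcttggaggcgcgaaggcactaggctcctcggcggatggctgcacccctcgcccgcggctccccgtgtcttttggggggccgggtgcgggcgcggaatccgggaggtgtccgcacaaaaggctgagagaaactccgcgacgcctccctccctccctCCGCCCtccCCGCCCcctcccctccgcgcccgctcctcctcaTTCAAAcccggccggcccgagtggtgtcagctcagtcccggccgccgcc
ZNF689, chr16:30610384-30610683, minus strand: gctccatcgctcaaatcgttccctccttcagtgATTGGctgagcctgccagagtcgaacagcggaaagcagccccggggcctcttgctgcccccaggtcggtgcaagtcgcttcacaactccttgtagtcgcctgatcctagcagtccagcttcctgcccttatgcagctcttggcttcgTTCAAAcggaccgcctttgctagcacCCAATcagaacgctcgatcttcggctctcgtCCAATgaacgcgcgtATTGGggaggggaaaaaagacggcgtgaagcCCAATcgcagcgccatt
ZNF326, chr1:89994860-89995159, plus strand: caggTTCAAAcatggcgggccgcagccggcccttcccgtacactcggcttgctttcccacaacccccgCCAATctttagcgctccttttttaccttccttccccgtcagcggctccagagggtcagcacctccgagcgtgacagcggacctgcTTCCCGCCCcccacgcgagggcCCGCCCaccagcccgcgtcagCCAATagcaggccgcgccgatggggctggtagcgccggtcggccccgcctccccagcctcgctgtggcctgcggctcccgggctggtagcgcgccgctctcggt
The ZNF141 stretch holds 3 NFY matches and 1 ETS match, the ZNF217 stretch 3 SP and 1 CHR, the ZNF689 stretch 5 NFY and 1 CHR, and the ZNF326 stretch 2 SP, 2 NFY, 1 E2F and 1 CHR. In ZNF326 an SP match overlaps the E2F match and both are in 1 run of capitals.

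Of the genes lower in quiescent cells, ZNF689, a KRAB gene of chromosome 16, had the largest fall among the probe sets that represent the family. It read 294, 454, 308 and 305 in quiescent samples, against 697, 715, 718 and 749 in cycling samples. The groups did not overlap, the difference was -1.52 (SE 0.21, limma adjusted p = 3.65e-05), and a second probe set was called lower too (-0.89). The quiescent mean of 340.2 was under the limit, so ZNF689 belongs to the family through its cycling samples.

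ZNF134, a C2H2 gene of chromosome 19, read 495, 579, 469 and 467 in quiescent samples, against 846, 905, 640 and 770 in cycling samples. Here too the groups did not overlap, and the difference was -1.06 (SE 0.18, limma adjusted p = 2.50e-04). ZNF202, a SCAN and KRAB protein known as a repressor of lipid metabolism genes, read 548, 871, 594 and 808 in quiescent samples, against 887, 1078, 980 and 1023 in cycling samples. The highest quiescent and the lowest cycling value were nearly equal, the difference was -0.93 (SE 0.19, limma adjusted p = 0.00118), and a second probe set was called lower (-1.19). ZNF362 read 827, 838, 877 and 903 in quiescent samples, against 1034, 1445, 1160 and 1266 in cycling samples, a difference of -0.91 (SE 0.17, limma adjusted p = 4.90e-04) with no overlap. ZNF326, which is described with the RNA-binding members, was the fifth. All 5 kept their calls with any one array left out.

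**Figure D4:**
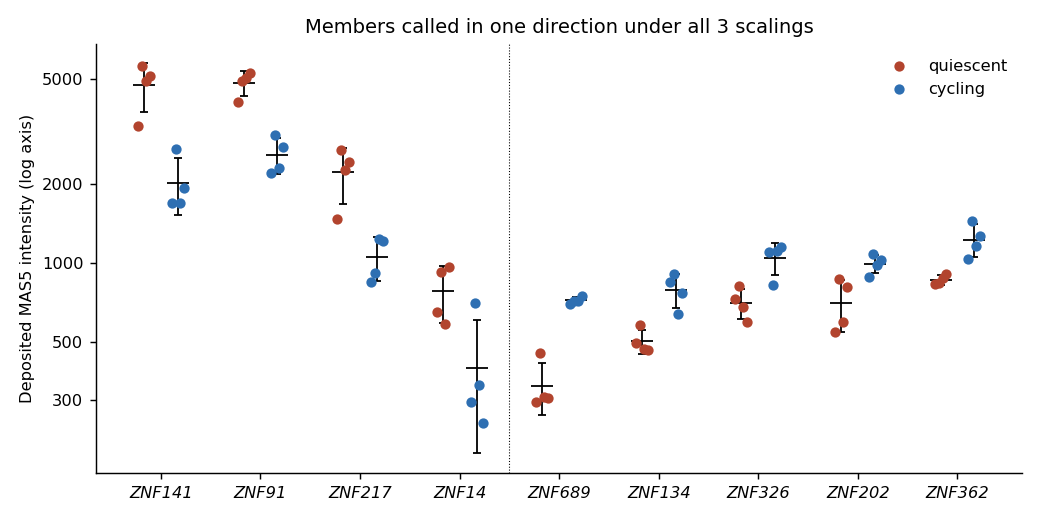
Deposited intensity (vertical axis, log scale) of the 9 genes called in 1 direction by all 3 scalings, 1 point per array, quiescent left of cycling, with mean and SD. Left of the dotted line ZNF141, ZNF91 and ZNF217 have every quiescent point above every cycling point while ZNF14 overlaps, and right of it ZNF689, ZNF134, ZNF326, ZNF202 and ZNF362 have every quiescent point below.

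The other large falls depended on the scaling. ZNF600, a KRAB gene measured by a probe set that can match other transcripts, read 458 ± 160 in quiescent and 709 ± 167 in cycling samples. It fell by 1.07 on the log2 scale with centred arrays, with overlapping groups. Its quiescent mean was under the limit, so ZNF600 belongs to the family through its cycling samples. ZNF394, a SCAN and KRAB gene, read 2668 ± 862 in quiescent and 3848 ± 1278 in cycling samples (difference -0.91), and was not called as deposited or after quantile normalisation. It also lost its call without quiescent sample 1 or any one of cycling samples 2, 3 and 4 (limma adjusted p = 0.0538 to 0.0716), and its second probe set was at 0.11. ZNF317, a KRAB gene, read 1474 ± 139 in quiescent and 1978 ± 264 in cycling samples, with no overlap, and was called lower with centred arrays (-0.83) and as deposited (-0.42) but not after quantile normalisation. The remaining 18 falls with centred arrays ran from -0.83 to -0.48. Of these ZNF232, named after its values were seen, read 523, 647, 593 and 569 in quiescent samples, against 681, 872, 747 and 807 in cycling samples. Its groups did not overlap, the difference was -0.83 (SE 0.18, limma adjusted p = 0.00177) and it was also called lower after quantile normalisation. ZNF823 and ZNF184, KRAB genes named in the same way, had overlapping groups, were called with centred arrays only (-0.70 and -0.69), and each lost its call when certain arrays were left out, with an adjusted p of up to 0.0536 for ZNF823 and 0.0951 for ZNF184.

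Several members were higher in quiescent cells only on the scale as deposited and after quantile normalisation. By both, 24 genes were called higher, including the 4 that were also called with centred arrays. The share of all genes tested that both called higher was not counted. It was 12.3% as deposited and 10.5% after quantile normalisation, each taken alone. The examples were named after their values were seen. ZNF226, a KRAB gene of chromosome 19, read 1168, 907, 1045 and 956 in quiescent samples, against 511, 477, 654 and 479 in cycling samples. Its groups did not overlap, and the difference was 0.95 as deposited (limma adjusted p = 0.00102) and 0.54 with centred arrays (limma adjusted p = 0.0541). This probe set of ZNF226 is marked _x. A second one, with a mean of 722, was at -0.08 with centred arrays and was not called. ZNF654 read 1058, 2457, 1915 and 1861 in quiescent samples, against 722, 1053, 960 and 898 in cycling samples, with a difference of 0.96 as deposited (limma adjusted p = 0.00716) and 0.54 with centred arrays. Its lowest quiescent value was close to its highest cycling value, and 5 dimmer probe sets were not called with centred arrays.

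ZNF101, a KRAB gene close to ZNF14 on chromosome 19, had little scatter: it read 1701, 1909.9, 1860.0 and 1789.6 in quiescent samples, against 1079, 1066, 1131 and 1112 in cycling samples. As deposited the groups lay far apart for their spread, but after centring quiescent sample 4 lay only just above cycling sample 3. The difference was 0.73 as deposited (limma adjusted p = 8.19e-04) and 0.31 with centred arrays (limma adjusted p = 0.179). Dimmer probe sets of ZNF101, with means of 980 and 787, were at -0.03 and 0.17 with centred arrays and were not called. ZNF117 read 5930.2 ± 1213 in quiescent and 3548 ± 671 in cycling samples, ZNF550 677 ± 70.0 in quiescent and 384 ± 113 in cycling samples, and ZNF236 1077 ± 233 in quiescent and 615 ± 72.8 in cycling samples. None of these 3 overlapped between groups. The cycling mean of ZNF550 was under the limit of the family, so ZNF550 belongs to it through its quiescent samples. ZNF3 (2217 ± 239 in quiescent and 1584 ± 130 in cycling samples) and ZNF22 (2451 ± 209 in quiescent and 1850.4 ± 146 in cycling samples) showed how far the scaling decides, since their centred differences were 0.07 and -0.01 while both were called higher as deposited, by 0.48 and 0.40.

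Among members with roles in RNA and ribosomes, 7 were measured at 500 or more, and 5 were called lower and 0 higher, with a median difference of -0.68, where 32.5% of all genes tested and 46.0% of other bright genes were lower. As deposited 2 of the 7 were lower and 1 higher, against 15.4% and 12.3% of all genes. ZNF598, the ubiquitin ligase that marks collided ribosomes, read 407, 614, 459 and 491 in quiescent samples, against 865, 640.0, 757 and 572 in cycling samples. One cycling value lay within the quiescent range and the difference was -0.93 (SE 0.22, limma adjusted p = 0.00274), but it was not called as deposited. The quiescent mean of 493 was under the limit, so ZNF598 belongs to the family through its cycling samples. Its fall, 1 of the 5, is thus partly a product of the choice. ZNF326, a subunit of the DBIRD complex that couples transcript elongation to splicing, read 726, 815, 678 and 596 in quiescent samples, against 1096, 826, 1112 and 1144 in cycling samples. Cycling sample 2 was just above quiescent sample 2, and the difference was -0.98 (SE 0.21, limma adjusted p = 0.0017). Its 3 dimmer probe sets were not called.

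ZNF330, a nucleolar protein and one of the brightest members, read 5849, 8407, 6778 and 5928 in quiescent samples, against 7694, 8960, 9217 and 9573 in cycling samples. Quiescent sample 2 lay among the cycling values, and the difference was -0.82 (SE 0.18, limma adjusted p = 0.00175). It was also called lower as deposited (-0.41) but not after quantile normalisation (-0.29, limma adjusted p = 0.151). ZNF706 (-0.62) and ZNF106 (-0.68) were called lower with centred arrays only, and ZNF706 lost its call without quiescent sample 2, cycling sample 3 or cycling sample 4 (limma adjusted p = 0.0555 to 0.0671). ZNF622, which helps large ribosomal subunits mature, read 5593 ± 1060.5 in quiescent and 5819 ± 1272 in cycling samples and was not called by any scaling. ZNF638, a DNA-binding and RNA-binding protein that takes part in silencing of unintegrated retroviral DNA, was the 1 member of the list with a positive centred difference. It read 4639, 4388, 3550 and 4943 in quiescent samples, against 2794, 3001, 3368 and 2399 in cycling samples. The groups did not overlap, yet the centred difference was 0.19 (limma adjusted p = 0.461) and the deposited one 0.60 (limma adjusted p = 0.00787).

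Both members with roles in cell division were measured. ZNF207 (BuGZ), which loads the checkpoint protein BUB3 onto kinetochores, was the brightest gene of the family. It read 9842, 9713, 9013 and 9261 in quiescent samples, against 8679, 8292, 10324 and 10476 in cycling samples. The quiescent values lay between the cycling ones, the centred difference was -0.40 (limma adjusted p = 0.0838) and the deposited difference 0.01. Without cycling sample 2 the centred difference was -0.55 and was called. ZNF367, a transcription factor linked to proliferation, read 566, 2050, 769 and 827 in quiescent samples, against 992, 1953, 1460 and 1275 in cycling samples. Sample 2 was the highest of both groups, and the difference of -0.99 (SE 0.32, limma adjusted p = 0.0309) lost its call under both other scalings. It was also lost without any one of the arrays other than quiescent sample 2 and cycling sample 1 (limma adjusted p = 0.0647 to 0.0868). Of the other bright members, ZNF146, a protein made almost wholly of zinc fingers, read 8024 ± 636 in quiescent and 9092 ± 931 in cycling samples and was lower with centred arrays only (-0.59). ZNF664 read 6716 ± 406 in quiescent and 8444 ± 924 in cycling samples, with no overlap, and was lower with centred arrays (-0.74) and as deposited (-0.33).

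Members that act at promoters or in chromatin complexes numbered 18 at 500 or more. Of these, 1 was called higher and 2 lower with centred arrays, against 2.80% and 32.5% of all genes, and their median difference was -0.04. As deposited 8 were higher and 0 lower, against 12.3% and 15.4% of all genes, and after quantile normalisation also 8 and 0, against 10.5% and 16.4%, so the number of increases depended on the scaling. Besides ZNF217 these were ZNF148, ZNF281, ZNF292, ZNF652, ZNF532, ZNF800 and ZNF451, in both scalings. ZNF292, a large tumour suppressor protein, read 1834, 2174, 2091 and 2656 in quiescent samples, against 1231, 1371, 1306 and 1065 in cycling samples. The groups did not overlap, and the difference was 0.81 as deposited (limma adjusted p = 0.00146) and 0.40 with centred arrays (limma adjusted p = 0.0874). ZNF148, which binds GC-rich promoters, read 2109, 2169, 2119.8 and 2550.0 in quiescent samples, against 1179, 1591, 1384 and 1536 in cycling samples. All quiescent values were above all cycling values, and the difference was 0.66 as deposited (limma adjusted p = 0.00355) and 0.25 with centred arrays. ZNF652, a repressor that binds DNA with CBFA2T3, read 1839, 2775, 2475 and 2488 in quiescent samples, against 1633, 1377, 1326 and 1203 in cycling samples. Its groups did not overlap, with a difference of 0.78 as deposited (limma adjusted p = 0.00251). ZNF800 read 3817, 4647, 4704 and 4873 in quiescent samples, against 2478, 3348, 2748 and 3243 in cycling samples, again with no overlap. ZNF451, a SUMO ligase, read 2940 ± 226 in quiescent and 1900 ± 199 in cycling samples, also with no overlap, and ZNF281, a factor of pluripotent cells, 4235 ± 886 in quiescent and 2873 ± 585 in cycling samples with overlap.

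The partners ZNF532 and ZNF592, which share a chromatin complex, differed in their calls. ZNF532 read 3232 ± 641 in quiescent and 1838 ± 271 in cycling samples and was higher as deposited (0.80), while ZNF592 read 563 ± 80.7 in quiescent and 526 ± 109 in cycling samples and was not called by any scaling at its brightest probe set. Both dimmer probe sets of ZNF592 were called lower with centred arrays (-0.95 and -1.15, limma adjusted p = 0.00897 and 0.00200). The difference between the 2 genes was not tested. ZNF143, an activator of small nuclear RNA genes, read 1526 ± 198 in quiescent and 1333 ± 412 in cycling samples and was not called by any scaling. The same held for ZNF24, ZNF318, ZNF384, ZNF644, ZNF395 and ZNF827, although a dimmer probe set of ZNF24 was called lower (-0.72). The lower genes of this list were ZNF511 (-0.80) and ZNF408 (-0.70), both with overlapping groups and with centred arrays only. ZNF408 also lost its call without any one of quiescent samples 1, 2 and 3 and cycling samples 2, 3 and 4 (limma adjusted p = 0.0551 to 0.143).

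The family's neighbours on the chromosomes did not share 1 direction. Runs of at least 4 members with no more than 5 other named protein-coding genes between neighbours numbered 9 and held 49 members. In the run on chromosome 4 all 4 genes had positive centred differences: ZNF595 0.92, ZNF718 0.36, ZNF141 0.83 and ZNF721 0.17. Apart from ZNF141 these genes were named after their values were seen. ZNF595 read 1137, 1221, 2039 and 1970.3 in quiescent samples, against 282, 601, 913 and 894 in cycling samples, with no overlap, and was called as deposited (1.33, limma adjusted p = 0.0122) but not with centred arrays (limma adjusted p = 0.0804). In the other 8 runs centred differences of both signs were found in 6, and in the 2 runs on chromosome 19 that start at ZNF317 and ZNF627 all were negative. On the scale as deposited 3 and 2 of the 5 genes in these 2 runs were positive, 0 runs were wholly negative and 3 were wholly positive: that of chromosome 4, the run from ZNF605 to ZNF10 on chromosome 12 and the run from ZNF101 to ZNF93 on chromosome 19. The 57 members on chromosome 19 had 2 higher and 8 lower calls and a median of -0.15, and the 95 on other chromosomes 2 higher, 20 lower and a median of -0.22. Among 347 other genes at 500 or more on chromosome 19, 3 were higher and 155 lower, with a median of -0.49, so the position of the family above other bright genes was also found within that chromosome.

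A run of 12 bases, GGCTTCCGGGAT, was the most shared stretch of that length in the members' promoters. It was found by counting all such runs on the gene's strand in the 134 promoters that matched, and it stands in 13 of them (9.70%), against 24 of 27305 promoters in the RefSeq table (0.0879%), 21 of which belong to ZNF genes. Among 5680 promoters of other genes at 500 or more, 2 hold it. Since the run was picked for being shared, these shares are a description. The 13 stretches are shown so that the likeness around the run can be read, 60 bases each, with the run in capitals, in order of the genes' centred difference, from RefSeq GRCh38.p14.
ZNF595, chr4:53275-53334, plus strand: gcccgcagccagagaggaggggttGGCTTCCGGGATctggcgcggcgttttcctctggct
ZNF141, chr4:337769-337828, plus strand: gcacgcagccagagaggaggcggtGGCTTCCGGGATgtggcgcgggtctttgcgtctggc
ZNF91, chr19:23395462-23395521, minus strand: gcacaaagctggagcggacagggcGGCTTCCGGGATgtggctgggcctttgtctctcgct
ZNF493, chr19:21397086-21397145, plus strand: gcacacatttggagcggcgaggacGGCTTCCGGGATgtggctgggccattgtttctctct
ZNF680, chr7:64563062-64563121, minus strand: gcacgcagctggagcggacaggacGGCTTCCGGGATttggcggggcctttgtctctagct
ZNF675, chr19:23687168-23687227, minus strand: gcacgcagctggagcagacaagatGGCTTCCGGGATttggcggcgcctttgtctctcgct
ZNF267, chr16:31873747-31873806, plus strand: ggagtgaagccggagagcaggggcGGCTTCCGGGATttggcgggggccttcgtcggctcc
ZNF43, chr19:21836173-21836232, minus strand: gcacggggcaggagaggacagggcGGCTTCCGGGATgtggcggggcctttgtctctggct
ZNF85, chr19:20923207-20923266, plus strand: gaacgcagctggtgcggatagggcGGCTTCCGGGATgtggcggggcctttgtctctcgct
ZNF254, chr19:24087143-24087202, plus strand: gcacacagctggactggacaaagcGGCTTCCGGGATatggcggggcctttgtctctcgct
ZNF107, chr7:64666089-64666148, plus strand: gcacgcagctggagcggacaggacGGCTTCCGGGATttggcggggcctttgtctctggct
ZNF669, chr1:247104351-247104410, minus strand: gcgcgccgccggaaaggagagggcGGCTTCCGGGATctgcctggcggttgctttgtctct
ZNF195, chr11:3379153-3379212, minus strand: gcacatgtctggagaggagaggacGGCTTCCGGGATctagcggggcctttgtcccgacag
The run lies close to the listed start site in each, and bases on both sides are alike as well, so the 13 promoters are not independent of each other. It contains CTTCCGG, the ETS letters read on the other strand. The 13 genes ranged in centred difference from 0.92 (ZNF595) to -0.78 (ZNF195). With centred arrays 2 were called higher and 1 lower, against 2.80% and 32.5% of all genes tested. Their median was -0.07, and the 121 matched members without the run had a median of -0.22. As deposited 4 were higher (ZNF595, ZNF141, ZNF91 and ZNF493) and 0 lower, against 12.3% and 15.4% of all genes tested. ZNF195, with the same run, read 1629 ± 155 in quiescent and 2115 ± 359 in cycling samples, so the run did not go with 1 direction. Of the 13, 8 (ZNF493, ZNF680, ZNF675, ZNF43, ZNF85, ZNF254, ZNF107 and ZNF195) were measured by probe sets marked _x or _s, which can match more than 1 transcript, and signal from a related copy cannot be told apart in them.

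Over all matched promoters, ETS letters were found in 41.0% of members, 23.4% of other genes at 500 or more and 10.7% of all promoters in the table. NFY letters were in 52.2%, 39.2% and 35.7% of the same groups. The shares of SP letters (69.4% of members and 71.3% of other bright genes) and E2F letters (11.2% and 11.5%) were close to each other. The ETS share was 40.0% in the 25 matched members called lower with centred arrays and 37.0% in the 27 called higher as deposited. No member of chromosome 19 held the NRF1 letters GCATGCG (0 of 50), which were in 10 of 84 members on other chromosomes and in 11.4% of other bright genes of chromosome 19.

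Of 43 genes listed as partners of KRAB repression, 40 had a probe set of their own and 39 passed the filter. The list is broad and includes chromatin and DNA methylation proteins with other roles, such as UHRF1, HELLS and DNMT1. With centred arrays 2 were called higher and 25 lower, with a median of -0.60. The lower share was 64.1%, against 32.5% of all genes and 46.0% of other genes at 500 or more. The higher share was 5.13%, against 2.80% of all genes. As deposited 3 were higher and 12 lower (7.69% and 30.8%), against 12.3% and 15.4% of all genes. Of other genes at 500 or more, 13.9% were higher and 23.3% lower as deposited. After quantile normalisation 3 were higher and 11 lower (7.69% and 28.2%), against 10.5% and 16.4% of all genes. TRIM28, the corepressor that KRAB domains bind, read 1251, 642, 664 and 898 in quiescent samples, against 1924, 1221, 1497 and 1249 in cycling samples. Quiescent sample 1 lay just above cycling samples 2 and 4, and the difference was -1.21 (SE 0.24, limma adjusted p = 9.44e-04), called lower in all 3 scalings. SETDB1, which methylates histone H3 for TRIM28, read 802 ± 103 in quiescent and 907 ± 75.9 in cycling samples, and its difference of -0.60 (limma adjusted p = 0.0135) was not called as deposited, where it was -0.18, nor with centred arrays without quiescent sample 3 (limma adjusted p = 0.0557).

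The largest fall of this list was that of UHRF1. UHRF1, which brings the maintenance methyltransferase to new DNA, read 223, 287, 156 and 42.6 in quiescent samples, against 1398, 1148, 1432 and 1460.4 in cycling samples. No quiescent value came near a cycling one, and the difference was -3.65 (SE 0.55, limma adjusted p = 8.88e-04). HELLS (-2.03), a chromatin remodeller, SUV39H2 (-1.70), a histone H3 methyltransferase, GATAD2A (-1.31) and HDAC2 (-1.20) of the NuRD deacetylase complex, and DNMT1 (-1.19), the maintenance DNA methyltransferase, were lower in all 3 scalings and did not overlap between groups. The 2 increases, named after their values were seen, were RESF1 and MPHOSPH8. RESF1, a regulator of retroelement silencing that works with SETDB1, read 683, 1189, 1156 and 1124 in quiescent samples, against 210.5, 614, 377 and 315 in cycling samples. Its groups did not overlap, with a difference of 1.11 (SE 0.26, limma adjusted p = 0.00305). MPHOSPH8, the chromodomain subunit of the HUSH silencing complex, read 4156 ± 565 in quiescent and 2254 ± 196 in cycling samples (0.46, limma adjusted p = 0.0446), and it lost its call without any one of quiescent samples 1, 3 and 4 and cycling samples 1, 2 and 4 (limma adjusted p = 0.0536 to 0.136).

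**Figure D5:**
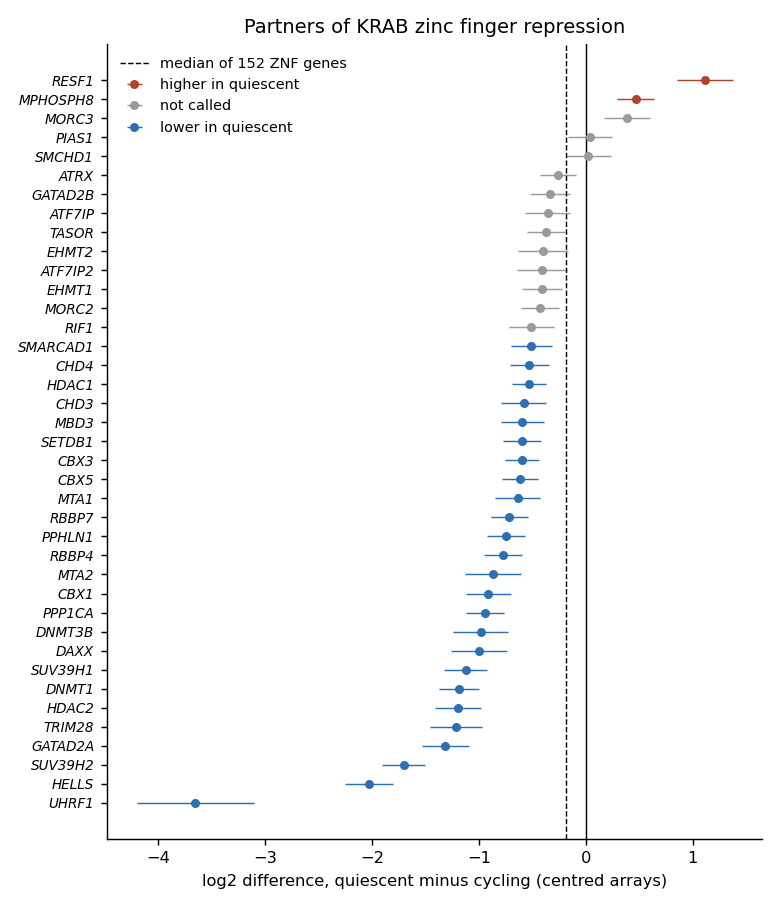
Log2 difference between quiescent and cycling samples (horizontal axis, centred arrays, bars are standard errors) of the 39 tested partners of KRAB repression. RESF1 and MPHOSPH8 lie at the top at 1.11 and 0.46, 25 genes are lower, and UHRF1 lies at -3.65, while the dashed line is the median of the 152 ZNF genes at -0.19.

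ZNF10 (KOX1), a KRAB protein whose domain is used in gene silencing tools, read 838 ± 288 in quiescent and 649 ± 249 in cycling samples and was not called by any scaling. Of the members, 98 had 174 further probe sets. For the 17 called members among them, 24 further probe sets passed the filter, of which 6 gave the same call, 18 were not called and 0 were called the other way. For uncalled members, 7 further probe sets of 6 genes were called lower and 2 of 2 genes higher. The largest of these was a probe set of ZNF85 with a mean intensity of 588 and a difference of -1.58 (SE 0.21, limma adjusted p = 5.21e-05), while the brightest probe set of ZNF85 was at -0.14, so the probe sets of this gene disagree. Of 169 dimmer ZNF genes that passed the filter, 3 were higher and 17 lower with centred arrays. These were 1.78% and 10.1%, against 2.80% and 32.5% of all genes tested, and their median stood 0.20 above that of all genes.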

How the data were processed

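RNA of 4 quiescent and 4 cycling samples was measured on Affymetrix U133 Plus 2.0 arrays. Titles gave the group and the number of each sample. RNA isolated with Trizol was labelled from 30 ng by the one-cycle method, per the labels. MAS5 made the values, per the submitters' processing notes, in a version not stated there. Deposited values are linear intensities, which the authors had scaled to a trimmed mean of 500.1 per array (2% trimmed at each end, from the values). Present and absent calls were not used, and the number of arrays limits the precision.

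Values below 1 became 1 before log2 was taken, and each array was centred on the median of its probe sets other than the 62 controls. Each gene was represented by its brightest probe set with 1 symbol in the platform annotation, which can be old (41097 of 54675 probe sets had 1 symbol, 1801 several and 11777 none). Of 19775 genes, those with a mean under 83.3, the median of all probe sets, were left out, and 11678 were tested. All 152 ZNF genes described passed, as did 321 of the 425. The comparison used limma 3.58.1 (lmFit, then eBayes with the trend and robust options) in R 4.3.3 with no covariate, and p-values were adjusted by Benjamini and Hochberg's method across the genes tested. The test was tried on simulated data first. Python 3.11.15, pandas 2.3.3 and matplotlib 3.10.9 were used for tables and figures. Sequences, chromosomes and gene order come from RefSeq tables of GRCh38.p14.

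The members, the lists of roles, partners and markers and the rule for named genes were chosen with earlier results of these data known. The rule named the 10 largest rises and falls among called members, all members of the role lists, the 5 brightest, 3 on each side of the limit, TRIM28, SETDB1 and up to 6 other called partners. Further genes were named after their values were seen. The role lists were written from general knowledge. Members were not split by KRAB domain, since protein sequences were not used here. ZNF131 and ZNF410 had no probe set with 1 symbol and are not analysed here. Alternatives were other scalings, other filters, 32 added before log2, a simpler variance model, a replicate block, each array left out, other choices of probe set and membership limits of 250 and 1000. No column of values was left unused.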

Additional observations from a re-analysis of the deposited data

Results flagged for a closer look

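Each named gene and the family median were examined for an array far from the other 3 of its group, measured as the gap to the nearest array over the whole range. The measure was taken on centred log2 values. Dixon's critical value for 4 samples was the limit. In 83 genes and 166 groups, 3 genes and the family median passed it, and chance alone flags about 1 in 20 groups. ZNF592 on cycling arrays reached 0.899, with cycling sample 1 lowest at 2.36 and the next at 2.76 above the array median. ZNF511 on cycling arrays reached 0.870, with cycling sample 2 lowest at 2.45 and the next at 3.39. ZNF675 on quiescent arrays reached 0.850, with quiescent sample 1 lowest at 3.33 and the next at 3.92. The median of the 152 ZNF genes above that of all genes tested reached 0.833 on cycling arrays, where cycling sample 1 was lowest at 0.34 and the next was 0.52 (log2). These are values only and their causes were not tested.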

How the results depend on the processing

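The family median stayed above that of all genes tested under every alternative run, by 0.05 (no filter) to 0.25 (the filter at the 75th percentile, an intensity of 422). The scaling as deposited, the simpler variance model and the replicate block cannot move this value, which was 0.14 in each, so they are no check of it. The counts did not hold as firmly. With the arrays as deposited 28 members were higher and 8 lower, 1431 and 1803 of all genes, and 12 KRAB partners lower. After quantile normalisation these were 24 and 8, 1230 and 1912, and 11. Without the filter, or without trend and robust fitting, 2 members and 1 partner were higher, and the mean of all probe sets left 2 members higher. Adding 32 gave 11 members higher. Plain probe sets gave 2407 genes and 12 partners lower, with fewer genes tested. Membership at 250 gave 44 of 236 members lower and at 1000 gave 13 of 81, so these counts follow the number of members. ZNF22, at -0.01 with centred arrays, was at 0.40 as deposited and 0.47 after quantile normalisation and was called higher in both. Of 83 named genes, 15 lost and 20 gained a call in the same direction as deposited, 15 and 19 after quantile normalisation, and 9 and 2 with the mean of all probe sets, where ZNF14, ZNF91, ZNF326 and ZNF362 were not called. Apart from the scaling and the number of genes tested, the cause of these shifts was not tested. Leaving out 1 array gave 1 to 6 members higher and 17 to 30 lower, 223 to 358 genes higher and 2945 to 4536 lower, and 1 to 2 partners higher and 20 to 29 lower. The lowest counts were 1 higher when quiescent sample 2 or 4 or cycling sample 1 was left out, and 17 lower without cycling sample 4 (18 without cycling sample 3). Without cycling sample 2, which stood closest to the quiescent arrays, 5 were higher and 30 lower. Same-numbered samples correlated in their deviations by 0.344, 0.196, 0.110 and 0.036, and not every sample correlated best with its own number, so numbers were not taken as pairs. With the sample number as a replicate block 8 members were higher and 42 lower. The comparison of KRAB with other ZNF genes was not run because protein sequences were not used here.

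Limits: 4 arrays a group leave small differences unresolved, and 120 uncalled members are not shown to be equal. Dim values cannot be told from background. Probe sets of related ZNF genes can share signal. Each array was scaled to 1 average and quiescent cells were sorted for low RNA, so no value is an amount per cell.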

Other observations

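Other families with C2H2 zinc fingers were measured at the same limit of 500. Of 20 ZBTB genes, whose proteins join zinc fingers to a BTB domain that binds corepressors, 1 was called higher and 0 lower with centred arrays, and 8 higher and 0 lower as deposited. Among all genes tested 2.80% were higher and 32.5% lower with centred arrays, and 12.3% and 15.4% as deposited. Their median stood 0.20 above that of all genes tested. Of 4 ZSCAN genes, with a SCAN domain for pairing, 0 were called in either direction with centred arrays and 1 was higher as deposited. Of 4 ZKSCAN genes 1 was lower with centred arrays and 2 were higher as deposited. Of 7 ZFP genes 2 were lower with centred arrays, 1 was higher as deposited, and their median stood at -0.02 against all genes tested.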
